A study of Homo sapiens with 2 samples.

Results

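The genes examined were MIR200B, MIR200A, MIR429, MIR200C, MIR141, MIR21, MIR205 and MIR31, which encode the miR-200 family and 3 further microRNAs known from epithelia and epithelial tumors. They were chosen by name, and every ETV4 ChIP-seq peak with an edge within 20 kb of one of them was collected, each peak being counted once per cluster. The 8 genes are a small set among 1911 RefSeq microRNA genes on the chromosomes of the peak list, and 4 of 54389 peaks met the rule. For the series, 1 immunoprecipitate with a Flag antibody and 1 Input were sequenced from A549, an established human lung adenocarcinoma cell line. As the study describes them, the cells carried a lentiviral shRNA against ETV4 and were transfected with a plasmid for Flag-tagged ETV4, so the tagged protein was expressed from a vector and not from its own gene. The immunoprecipitate is the only group with a peak list, and there was no replicate. The Input entered only through the fold enrichment, p and q of each peak, and no SD, no p-value between conditions and no check of the epithelial state of the cells by RNA could be given.

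ETV4 is a transcription factor of the ETS family, whose members recognise DNA with a GGAA core. MicroRNAs are cut from longer transcripts, which often belong to a host gene, and their seed, bases 2 to 8 of the mature strand, pairs with messenger RNAs and lowers their output. The miR-200 family is known for keeping epithelial cells epithelial by repressing ZEB1 and ZEB2, and these repressors bind E-boxes in the miR-200 promoters and silence them in return. miR-21 is known as an oncogenic microRNA that represses tumor suppressors such as PDCD4. miR-205 is abundant in stratified epithelia and also acts on ZEB1 and ZEB2, and miR-31 is known for its effects on integrins, RhoA and invasion.

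The mature strands below, taken from RefSeq on GRCh38.p14, are shown because they divide the family into seed groups that cut across the genomic clusters. Capitals mark the seed. Mature entries were found for 8 of the 8 genes.
miR-200b-3p: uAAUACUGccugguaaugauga
miR-200c-3p: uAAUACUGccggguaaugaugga
miR-429: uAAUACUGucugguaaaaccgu
miR-200a-3p: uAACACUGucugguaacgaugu
miR-141-3p: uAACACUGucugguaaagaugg
miR-21-5p: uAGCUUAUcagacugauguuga
miR-205-5p: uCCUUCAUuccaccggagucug
miR-31-5p: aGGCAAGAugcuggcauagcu

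The 5 family members carried 2 seeds that differ by the single substitution U4C, counted from the 5′ end of miR-200b-3p and read toward miR-200a-3p. The first seed was held by 3 human mature microRNAs in the table, which came from both clusters, and the second by miR-200a-3p and miR-141-3p, again 1 from each cluster. Over 22 aligned bases, miR-200b-3p and miR-200c-3p were identical at 20 and differed by U11G and A22G, and miR-200a-3p and miR-141-3p were also identical at 20, differing by C17A and U22G. The seed of miR-21-5p was shared with 1 further microRNA, miR-590-5p, whereas the seeds of miR-205-5p and miR-31-5p were found in no other mature entry.

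The 8 genes lie at 5 loci on hg38. MIR200B (chr1:1167104-1167198), MIR200A (chr1:1167863-1167952) and MIR429 (chr1:1169005-1169087) form a cluster of 1984 bp on the plus strand inside the lncRNA gene MIR200BHG (chr1:1162877-1170338). MIR200C (chr12:6963699-6963766) and MIR141 (chr12:6964097-6964191) form a cluster of 493 bp on the plus strand inside the lncRNA gene MIR200CHG (chr12:6963245-6964447). MIR21 (chr17:59841266-59841337, plus strand) lies near the 3′ end of VMP1 (chr17:59707654-59842255), a protein-coding gene for an autophagy protein of the endoplasmic reticulum. MIR205 (chr1:209432133-209432242, plus strand) lies within MIR205HG (chr1:209428820-209432549), and MIR31 (chr9:21512115-21512185, minus strand) within MIR31HG (chr9:21454268-21559798). The annotation used gives gene bounds and starts, so whether a peak was exonic or intronic was not analysed here.

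Peaks of Flag-ETV4 were found within 20 kb of the 5 miR-200 family genes, at both of their loci, and not within 20 kb of MIR21, MIR205 or MIR31. The count was therefore 5 of 8 genes, beside a background of 61.3% of the 1903 other microRNA genes (1167 genes, Wilson 95% interval 59.1 to 63.5%), so the share over the 8 genes was near the background. Genes of a cluster share their peaks, and by locus the count was 2 of 5, beside 63.1% of 1590 other microRNA loci. None of the 8 hairpins had a peak within 1 kb, beside 15.9% of the other microRNA genes. Over so few genes this count is not read as a difference. With a window of 50 kb, 7 of 8 genes had a peak, all except MIR21, beside 80.1% of the others. The peak list holds only regions above the caller's threshold (lowest −log10 q 1.30), so a locus without a peak has no measured value, and no upper limit on binding can be given for it.

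**Figure D1:**
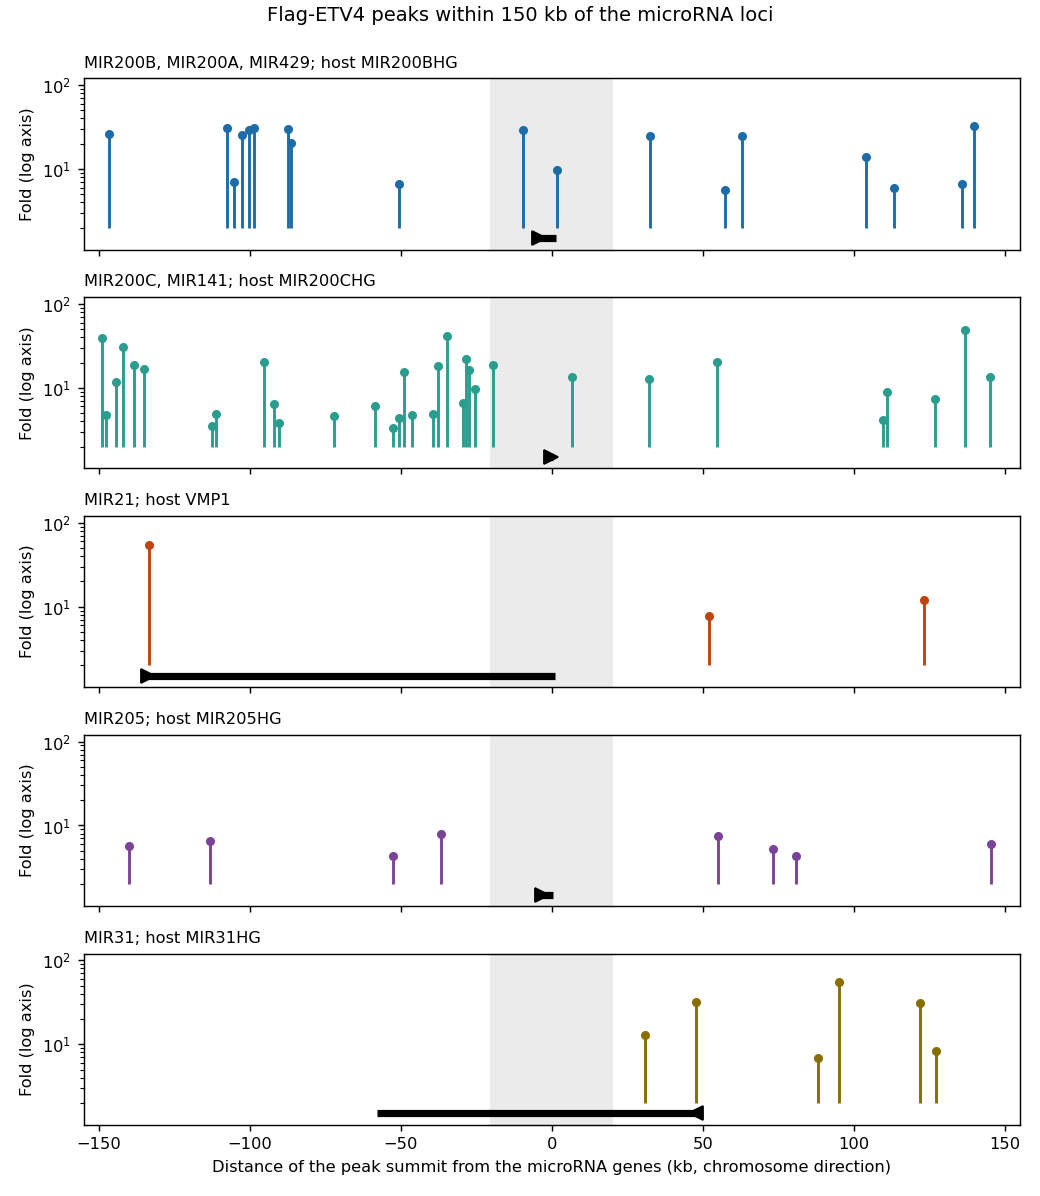
Peak fold enrichment (log axis) against the distance of the summit from the microRNA genes in kb, with 1 panel per locus. The grey band marks 20 kb on each side, the black bar is the host gene and its arrowhead the host start; both miR-200 loci have peaks in the band, and MIR21, MIR205 and MIR31 have none.

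At the MIR200B-MIR200A-MIR429 cluster, 2 peaks flanked the genes. The upstream peak (chr1:1157443-1157882) was 440 bp wide and had a fold enrichment over the control of 29.3, a value above 84.3% of the list, and its −log10 q was 84.9. Its summit held 66 fragments (exact Poisson 95% interval 51.0 to 84.0) over a control level of 1.28. The downstream peak (chr1:1170214-1170845) was 632 bp wide with a fold of 9.63, which is the median fold of all 54389 peaks, and its summit held 21 fragments (interval 13.0 to 32.1) over the same control level. The intervals of these 2 pileups did not overlap, so the upstream peak was the higher beyond counting error, although it lay farther from the genes. These intervals cover counting error only and not the spread between cultures, which was not measured.

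The upstream summit lay 9470 bp before MIR200B and 5243 bp before the start of MIR200BHG. It was 55 bp upstream of a RefSeq start of the uncharacterised gene LOC124903820 and also lay inside LOC107985736, so the summit was nearer to that start than to the host gene. The stretch around this summit is shown because it has the highest fold of the 4 peaks within 20 kb, with the GGAA core in capitals (chr1:1157584-1157684, plus strand, GRCh38.p14).
LOC124903820 upstream: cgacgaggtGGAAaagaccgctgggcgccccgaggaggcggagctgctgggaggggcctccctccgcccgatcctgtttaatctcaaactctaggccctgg
This stretch held 1 GGAA core, counting both strands. The downstream summit lay 1546 bp past MIR429 and 295 bp past the 3′ end of MIR200BHG, and 3247 bp before the start of TTLL10, a gene of the tubulin tyrosine ligase-like family.

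At the MIR200C-MIR141 cluster, 2 peaks were also found, both at starts of neighbouring genes. The peak on the low side (chr12:6943794-6944927) was 1134 bp wide with a fold of 18.7 and a −log10 q of 73.6. Its summit held 76 fragments (59.9 to 95.1) over a control level of 3.11 and lay 78 bp inside the start of C12orf57, 19.6 kb before MIR200C, and the peak also covered RNU7-1, the U7 small nuclear RNA gene of histone mRNA processing. The peak on the high side (chr12:6969948-6971431) was 1484 bp wide with a fold of 13.4 and a −log10 q of 56.6. Its summit held 71 fragments (55.5 to 89.6) over a control level of 4.39 and lay 6675 bp past MIR141, between the divergent starts of PHB2, which encodes prohibitin 2, and EMG1, a ribosome biogenesis factor. The 2 pileups at this cluster had overlapping intervals. They also overlapped that of the upstream MIR200B peak, whose larger fold went with a lower control level.

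The EMG1 side of the peak is shown because its summit falls inside a promoter window (chr12:6970816-6970912, plus strand, GRCh38.p14). Capitals mark GGAA on the printed strand, or TTCC where the core is on the other strand.
EMG1 upstream: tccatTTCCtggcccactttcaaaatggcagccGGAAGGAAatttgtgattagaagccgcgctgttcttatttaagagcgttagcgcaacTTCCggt
The stretch held 4 cores in 97 bases, and the nearest had its centre 11.5 bp from the summit. The whole EMG1 window of 300 bases held 8 cores and the C12orf57 window 6, beside a median of 3. At the summits near the starts of LOC124903820 and MIR31HG the nearest core was 39.5 and 31.5 bp away. The last of the 4 cores in the EMG1 stretch is part of a match to the full ETS site CCGGAAGT on the minus strand. That match starts 9 bases before the EMG1 start, and its centre was 41.5 bp from the summit. A match of this kind was present in 4.14% of 34961 RefSeq promoter windows of 300 bases, whereas GGAA on either strand was present in 95.5%.

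The starts of the miR-200 host genes themselves had no peak. From the start of MIR200BHG the nearest peak edge was 4995 bp away, and from the start of MIR200CHG it was 6703 bp away. These starts lie 4.23 kb before MIR200B and 454 bp before MIR200C. The sequences around both starts are shown because they hold the E-box CACCTG, the element that ZEB1, ZEB2 and SNAI1 bind. Capitals mark CACCTG and GGAA, or its reverse complement, and the last 10 bases begin at the annotated start (chr1:1162752-1162886 and chr12:6963120-6963254, both plus strand, GRCh38.p14).
MIR200BHG start: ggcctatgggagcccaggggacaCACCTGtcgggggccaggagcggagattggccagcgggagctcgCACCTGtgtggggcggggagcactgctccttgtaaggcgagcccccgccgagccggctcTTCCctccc
MIR200CHG start: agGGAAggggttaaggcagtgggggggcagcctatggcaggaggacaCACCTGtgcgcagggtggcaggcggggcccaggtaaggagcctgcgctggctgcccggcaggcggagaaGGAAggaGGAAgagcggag
The MIR200BHG window held CACCTG at 102 and 58 bases before the start and the MIR200CHG window at 78 bases before it. An E-box of these letters on either strand was present in 20.6% of all windows. The windows of 300 bases held 2 GGAA cores in MIR200BHG and 4 in MIR200CHG, beside a median of 3, and neither held CCGGAAGT or the AP-1 site TGACTCA, which was present in 4.92% of all windows.

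MIR21 had no peak within 50 kb, and the start of its host gene had one of the stronger peaks of the list. The nearest peak (chr17:59893110-59893632) was 51.8 kb beyond the hairpin, with a fold of 7.70 and 40 fragments at the summit (28.6 to 54.5) over a control level of 4.32, and lay at the start of RPS6KB1, which encodes the p70 S6 kinase. On the other side, the first peak (chr17:59707019-59708242) was at the start of VMP1, 133 kb away. It was 1224 bp wide with a fold of 54.8 and a −log10 q of 309, and its summit held 216 fragments (188 to 247) over a control level of 2.96. Its summit lay 61 bp inside VMP1. PTRH2, a mitochondrial peptidyl-tRNA hydrolase gene, starts at 59707430 on the opposite strand, so the peak also covered the PTRH2 start. MIR21 thus lay in a stretch of 185 kb without a peak, and 22.2% of the other microRNA genes that lie between peaks had a longer one. The stretch around MIR31 was longer still, at 207 kb, and was exceeded for 20.5% of those other genes.

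The bases before the VMP1 start are shown because they hold the full ETS site (chr17:59707554-59707653, plus strand, GRCh38.p14), with CCGGAAGT and the further GGAA core in capitals.
VMP1 upstream: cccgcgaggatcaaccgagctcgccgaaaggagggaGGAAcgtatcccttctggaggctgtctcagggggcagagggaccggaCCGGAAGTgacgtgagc
The site began 17 bases before the start. The same letters lay 214 bases before the PTRH2 start, since the windows of the 2 genes overlap.

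MIR31 had no peak within 20 kb, but its host gene MIR31HG held 2 peaks, and both lay upstream of the hairpin in the direction of transcription. The nearer peak (chr9:21542806-21543286) was 30.6 kb from MIR31, with a fold of 12.8 and 29 fragments (19.4 to 41.6) over a control level of 1.35. The farther peak (chr9:21558643-21560307) covered the start of MIR31HG. It was 1665 bp wide with a fold of 32.0, higher than 86.3% of all peaks, and held 85 fragments (67.9 to 105) over a control level of 1.69. The intervals of this pair did not overlap. The summit of the farther peak was 99 bp before the MIR31HG start, 47.7 kb from the hairpin, and the sequence around it is shown with GGAA cores in capitals, written in the direction of MIR31HG (chr9:21559847-21559947, minus strand, GRCh38.p14).
MIR31HG upstream: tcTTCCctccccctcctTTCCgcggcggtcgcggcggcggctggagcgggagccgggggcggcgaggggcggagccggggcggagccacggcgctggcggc
This stretch held 2 cores, and the whole window held 3, which is the median of all windows. No CCGGAAGT was found in the window of 300 bases, which held 1 CACCTG on the other strand, 34 bases before the start.

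MIR205 had neither a peak within 20 kb nor one at its host start, and the peaks around it were low. The nearest peak (chr1:209395344-209395702) was 36.4 kb before the hairpin with a fold of 7.88 and 17 fragments (9.90 to 27.2) over a control level of 1.28, and the nearest on the other side was 54.7 kb away with a fold of 7.44. All 5 peaks within 100 kb of MIR205 had folds below the median of all peaks. The start of MIR205HG was 33118 bp from a peak edge, and its window held neither CCGGAAGT nor CACCTG.

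**Figure D2:**
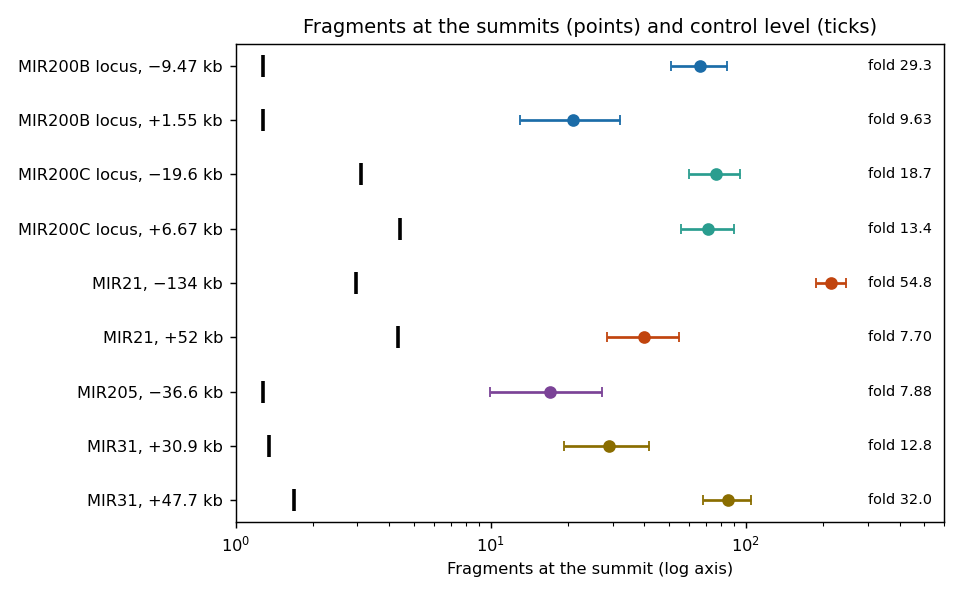
Fragments at the summit on a log axis (points, with exact Poisson 95% intervals) and the control level at the same place (black ticks) for peaks near the 5 loci, labelled by the locus and the distance of the summit. The VMP1 peak, 134 kb from MIR21, reaches 216 fragments, and the peak nearest to MIR205 has 17.

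A peak within 1 kb of the host start was found for 2 of 8 genes, MIR21 and MIR31, and not for the 5 family members or MIR205. Among the 1006 other microRNA genes with a host on the same strand, 72.8% had such a peak (69.9 to 75.4%). The hosts differ in kind, since VMP1 is protein-coding and the others are lncRNA genes. Among 176 other microRNA genes whose hosts are all lncRNA genes, the share was 38.6% (31.8 to 46.0%), beside 1 of 7 genes, at 4 loci, here. This comparison of host starts was chosen after the peaks had been seen. The starts of VMP1 and MIR31HG lie 134 kb and 47.6 kb before MIR21 and MIR31. Which start gives rise to each microRNA was not analysed. Clustered genes share their host and their peaks, so the 8 genes are 5 observations at most, and no test was made of these shares.

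In distance to the nearest peak the genes spanned much of the range of other microRNA genes. It was 1.13 kb for MIR429, 2.26 kb for MIR200A and 3.02 kb for MIR200B, all from the downstream peak, and 5.76 kb for MIR141 and 6.18 kb for MIR200C. The median of the 1903 others was 11.97 kb (quartiles 2.66 and 36.6 kb). The distances of MIR31 (30.6 kb), MIR205 (36.4 kb) and MIR21 (51.8 kb) were exceeded by 28.9%, 25.1% and 19.2% of the others, respectively. The highest fold within 20 kb was 29.3 at the MIR200B cluster and 18.7 at the MIR200C cluster, beside a median of 19.3 (quartiles 9.63 and 35.2) over the 1167 other genes with a peak in that window.

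**Figure D3:**
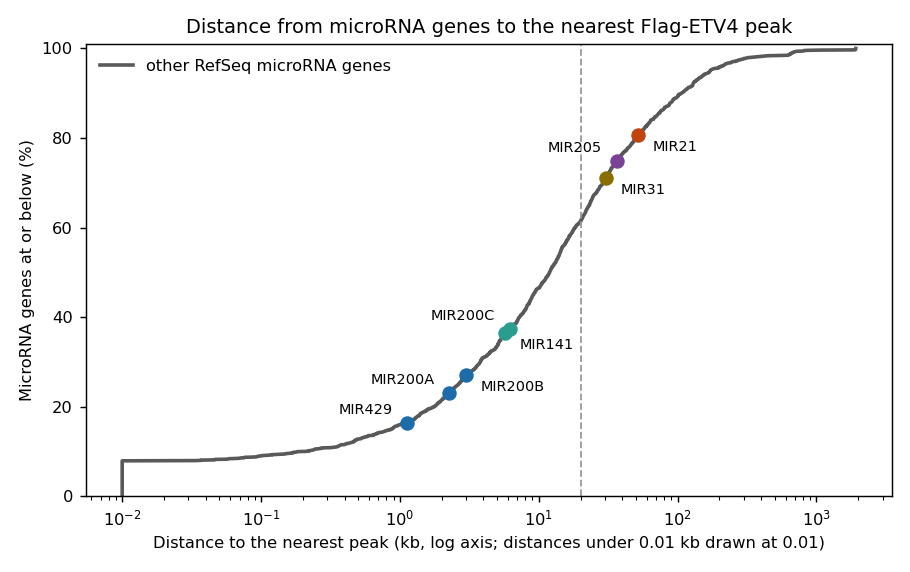
Cumulative share of the 1903 other microRNA genes (%, line) against the distance to the nearest peak in kb (log axis), with the 8 genes as points and 20 kb as a dashed line. The 5 miR-200 family genes sit between 1.13 and 6.18 kb, and MIR31, MIR205 and MIR21 between 30.6 and 51.8 kb.

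Peaks and genes were denser around both miR-200 clusters than around the 3 other loci. Within 1 Mb there were 70 peaks around the MIR200B cluster and 119 around the MIR200C cluster, but 34 around MIR21, 40 around MIR205 and 39 around MIR31, beside a median of 53 for the other microRNA genes. Gene ends within 20 kb numbered 7 at MIR200B and 15 at MIR200C, but 4 at MIR21 and 2 each at MIR205 and MIR31. The other microRNA genes had a median of 2 gene ends (quartiles 1 and 5). The part of peak and gene density in the result was not tested.

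Most genes on which these microRNAs act, or that act on them, had a peak at an end. A peak within 1 kb of an end was found for 48 of the 53 protein-coding genes of the lists of targets, regulators and processing factors, beside 62.3% of 19974 protein-coding genes (61.6 to 63.0%). With a fold over 10 the count was 41 of 53, beside 45.4% of all protein-coding genes (44.7 to 46.1%). The lists hold well-studied genes named from background knowledge, with earlier results of these data already known. The counts only describe these genes.

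All 10 listed targets of the miR-200 family had such a peak, 8 of them with a fold over 10. ZEB1, the main partner of the family in its reciprocal repression, had a peak of 3167 bp (chr10:31318043-31321209) with a fold of 53.2 and 142 fragments at the summit (120 to 167). VEGFA, an angiogenic factor, reached 43.8, the Polycomb genes BMI1 and SUZ12 43.4 and 33.3, and the Notch ligand JAG1 40.2. ZEB2 differed from ZEB1 in position. Its peak at a gene end had a fold of 3.75 with 13 fragments (6.92 to 22.2), whereas a peak inside the gene (chr2:144445895-144446665) had a fold of 101.1 and 367 fragments (330 to 407), and these intervals did not overlap. The inside peak was named after its value was seen, and no share over all protein-coding genes is given for such peaks.

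Of 10 listed miR-21 targets, 9 had a peak, 6 with a fold over 10. Among the highest were those at SMAD7, an inhibitor of TGF-β signalling (60.3), SPRY2 and SPRY1, inhibitors of receptor tyrosine kinase signalling (46.4 and 17.0), and PDCD4 (16.2), and the metalloproteinase inhibitor gene TIMP3 had none within 20 kb. All 5 listed miR-205 targets had one, which were ZEB1, ZEB2 and VEGFA again, the receptor gene ERBB3 (29.1) and the phosphoinositide phosphatase gene INPPL1 (19.7). All 9 listed miR-31 targets had one, led by the metalloproteinase gene MMP16 (72.1), the HIF regulator HIF1AN (51.3), the Hippo kinase gene LATS2 (45.5), the integrin gene ITGA5 (36.7) and RDX, which encodes radixin (25.1).

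Among 10 listed regulators of these microRNA genes, 8 had a peak at an end. After ZEB1 the highest folds were at the AP-1 gene FOSL1 (47.3), STAT3 (46.9), JUN (36.3) and SNAI1 (31.1). TP63 and GRHL2, which encode transcription factors of epithelial cells, had none at an end but had peaks inside the gene, with folds up to 94.3 and 125. Of 14 listed genes of microRNA processing and silencing, 12 had a peak at an end. The highest were at the Dicer partner TARBP2 (39.8), AGO4 (39.3), TNRC6C (38.6) and 1 peak shared by the neighbouring genes AGO1 and AGO3 (35.0), and AGO2 and TNRC6A had none at an end but 4 and 3 inside the gene. DICER1, DROSHA and DGCR8, which encode the core processing enzymes and the partner of Drosha, had folds of 23.6, 13.1 and 5.25. The peaks inside TP63, GRHL2, AGO2 and TNRC6A were named after their values were seen. No share over all protein-coding genes is given for inside peaks, so they do not stand in for peaks at an end.

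**Figure D4:**
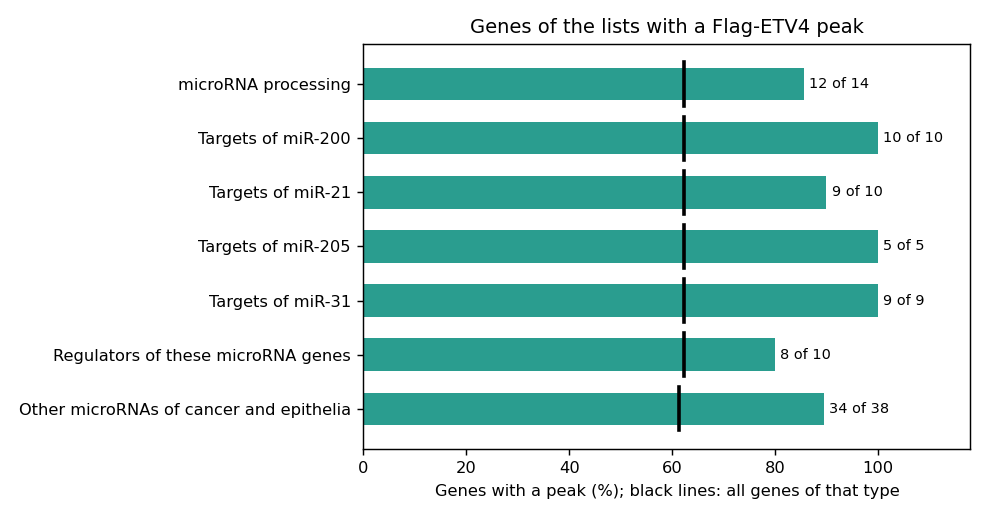
Share of genes with a Flag-ETV4 peak (%, bars from 0) in each list, with the count beside each bar. Black lines mark 62.3% of all protein-coding genes with a peak within 1 kb of an end or, for the microRNA list, 61.3% of the other microRNA genes with one within 20 kb; every list lies to the right of its line.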

How the data were processed

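ChIP-seq peaks of 1 anti-Flag immunoprecipitate were analysed, with the Input used only through the authors' values. The authors deposited, for each peak, positions on hg38, the fold enrichment over the control (a ratio), the −log10 p and −log10 q at the summit, and a display score, which was not used. The submitters' processing notes name Bowtie2 2.4.1, SAMtools, MACS2 2.2.7.1 and deepTools 3.5.0, and the study states a minimum fold change for the peaks (the lowest fold in the list was 2.34), while other calling parameters and the treatment of duplicates are not given in the sources used here. The labels and the study's methods name different suppliers of the Flag antibody.

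The 8 genes and the lists of related genes were chosen with earlier results of these data known. Genes less than 10 kb apart were joined into loci. Named genes were the 8 genes, their hosts, genes at the peaks and on each side of the loci, and from each list the 5 with the highest fold and up to 5 without a peak, except 1 gene that is not reported here. DICER1, DROSHA, DGCR8, ZEB2 and the peaks inside AGO2, TNRC6A, TP63 and GRHL2 fall outside that rule and were named after their values were seen. Gene bounds, promoter windows and sequences came from RefSeq GRCh38.p14, and positions are 1-based.

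Summit pileups were computed from fold and −log10 p, with the fold as (pileup + 1)/(control + 1) and a Poisson model. All 54389 pileups were whole to within 0.00914 (tolerance 0.01), and 100% of 2701 simulated ones were recovered. The simulated ones were made with the same formula, over a narrower range, and judged at a looser tolerance. They check only the solving step. The total depth was not used here, and the median pileup of 26 fragments sets the precision. Pileups have exact Poisson and shares Wilson 95% intervals. With 1 library, no test between conditions was made. Alternatives covered the window, fold, q, the summit and loci as the unit. Computations ran in Python 3.11.15 with scipy 1.17.1, pandas 2.3.3 and numpy 2.4.6, and figures were drawn with matplotlib 3.10.9.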

Additional observations from a re-analysis of the deposited data

How the results depend on the processing

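The 4 peaks and 2 loci within 20 kb became 3 peaks at 2 loci within 10 kb or with a fold over 10, and were 4 at 2 loci by summit distance, with a fold over 5 or with a −log10 q of at least 10. Within 50 kb there were 18 peaks at 4 loci. The share of other microRNA genes with a peak was 46.4% within 10 kb, 80.1% within 50 kb, 56.1% with a fold over 5, 45.2% with a fold over 10 and 52.9% with a −log10 q of at least 10, each of which follows from the window or threshold itself, and was 63.1% over 1590 loci. The strongest fold at the MIR200C cluster was 13.4 within 10 kb and 41.6 within 50 kb, whereas at the MIR200B cluster it was 29.3 in every alternative run. The count of 2 host starts was the same with 3 kb or a fold over 10, alternatives chosen after seeing the data. Pileups between 17 and 40 fragments limit the comparison of the weaker peaks. No paired analysis was possible because there was 1 immunoprecipitate.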

Other observations

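Most other microRNA genes known from cancer and epithelia had a peak nearby. Of 38 such genes on a list drawn from background knowledge, 34 (89.5%, at 20 of 23 loci) had a peak within 20 kb. The share was 61.3% of the 1903 other microRNA genes, which include them. This list was also chosen with earlier results of these data known, and no test was made. The highest folds within 20 kb were near MIR34A, a target of p53 (111), and MIR126, an endothelial microRNA within EGFL7 (95.9). MIR203A, a microRNA of stratified epithelia (45.9), MIR10B (40.1) and the MIR23A cluster (36.5) followed. The nearest peak of any fold lay 5.19, 3.81, 0.075, 9.22 and 0 kb from these genes, in that order. The 4 genes without a peak were MIR155 and MIR146A, both known from immune signalling, and MIR15A and MIR16-1, which share a cluster, and their nearest peaks lay 33.0, 46.7, 30.9 and 31.0 kb away.

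The ordering of the peaks near the miR-200 clusters depended on the measure and the window. Within 20 kb the upstream MIR200B peak led by fold (29.3, beside 18.7 and 13.4 at MIR200C), whereas by fragments at the summit both MIR200C peaks were higher (76 and 71, beside 66), with overlapping intervals. Within 50 kb the MIR200C cluster had a peak with a fold of 41.6 and 153 fragments. The control level of the upstream MIR200B peak was 1.28, beside 3.11 and 4.39. MIR31, which is on the minus strand, had 2 of its 2 peaks within 50 kb on the side of its host start, and the strongest peak within 100 kb (chr9:21606758-21607609, fold 55.2, 137 fragments, interval 115 to 162) lay beyond that start.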
